A study of Mus musculus with 6 samples.

Results

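The genes described here had a higher signal in every heart array of apoE-deficient mice, whether treated with rosiglitazone or not, than in both heart arrays of B6 mice. They were chosen by their values: a probe set of the array, a group of short DNA probes for 1 transcript, was taken if its mean normalized signal was 100 or more and the lowest of the 4 apoE-deficient arrays was at least 1.3 times the higher B6 array. This gave 109 probe sets of 100 genes, of 34945 probe sets of 18193 genes that have 1 gene symbol, and 0.777% of the 14033 probe sets with a mean signal of 100 or more. Their distance from B6 is therefore a description with no test. The difference between the rosiglitazone and the untreated apoE-deficient arrays was not itself part of the rule and was tested, but the rule bears on it. All 4 arrays must reach 1.3 times the higher B6 array, so a probe set at B6 level in 1 group cannot be a member. A member lower with rosiglitazone thus has its rosiglitazone arrays between the other groups by the rule, and the same holds the other way round. Both groups also enter the mean signal. Without the rosiglitazone arrays 5 probe sets average under 100 (Slc27a2, Elovl3, Serpina3n, Ighm and the dimmer one of Abca1), without the untreated apoE-deficient arrays 5 (Prkcb, Klhdc4, Gnb3, Atp6v1e1 and Ms4a6d), and with either of these groups left out 3 (Ttll7, Pola2 and the dimmer one of Cpxm2). For these 13 the difference between the apoE-deficient groups is given as a description, with no test.

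Total RNA of heart tissue was hybridised to Affymetrix arrays in 3 groups of 2 arrays. The first group was apoE-deficient mice on the B6 background, 8 months old, given rosiglitazone at 30 mg/kg daily over 2 months, starting at 6 months; the labels call their tissue failing heart, so drug and heart failure cannot be told apart. The second was untreated apoE-deficient mice of the same age and background, and the third was untreated wild-type B6 mice of that age. Every group ate a chow with 7% fat and 0.15% cholesterol. The labels do not state whether the arrays of a group come from separate animals or pools, so a p-value here reflects array-to-array spread within groups, which may be technical only.

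Apolipoprotein E sits on lipoprotein remnants and lets liver receptors clear them, and mice without it carry cholesterol-rich remnants in the blood and develop atherosclerosis. Macrophages take up such particles, store the cholesterol and pass it out through the transporters Abca1 and Abcg1, which oxysterols switch on through the liver X receptors. Rosiglitazone activates PPAR gamma, a nuclear receptor that drives fat cell genes and acts in macrophages too.

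Apoe itself had 62.2 and 65.2 in rosiglitazone hearts, 26.6 and 67.4 in untreated apoE-deficient hearts and 3834 and 3698 in B6 hearts, in the units of normalized signal used throughout, so the labels and the data go together. The deposited signals were not on 1 scale. Their 2%-trimmed means were 265 to 342 in the rosiglitazone group, 126 to 131 in the untreated apoE-deficient group and 150 to 176 in the B6 group, so overall brightness moves with group and quantile normalization removed it. All 109 probe sets had all 4 apoE-deficient arrays above both B6 arrays also when arrays were scaled to their trimmed mean, their median or their hybridization controls, and 87 of 109 had with no scaling. The ratio of at least 1.3 that the rule asks was kept by fewer. It was kept by 97 with trimmed means, 78 with medians, 109 with hybridization controls and 27 with no scaling. Cardiomyocyte markers were bright in every array and none of the 15 is a member.

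The members were mostly modest in size. The lowest apoE-deficient array was at least 1.5 times the higher B6 array for 38 probe sets and at least 2 times for 6, with a median of 1.43 and a maximum of 4.69. Over the 100 genes the median fold of the group means against B6 was 1.72 in rosiglitazone hearts and 1.67 in untreated apoE-deficient hearts. At the edge of the rule, the smallest ratios inside were 1.301 for Ly86, 1.302 for Ugp2 and 1.303 for Scd2, and the largest outside were 1.299 for Max and 1.298 for Rrp12. By the same rule turned round, 116 probe sets were lower in both apoE-deficient groups.

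**Figure D1:**
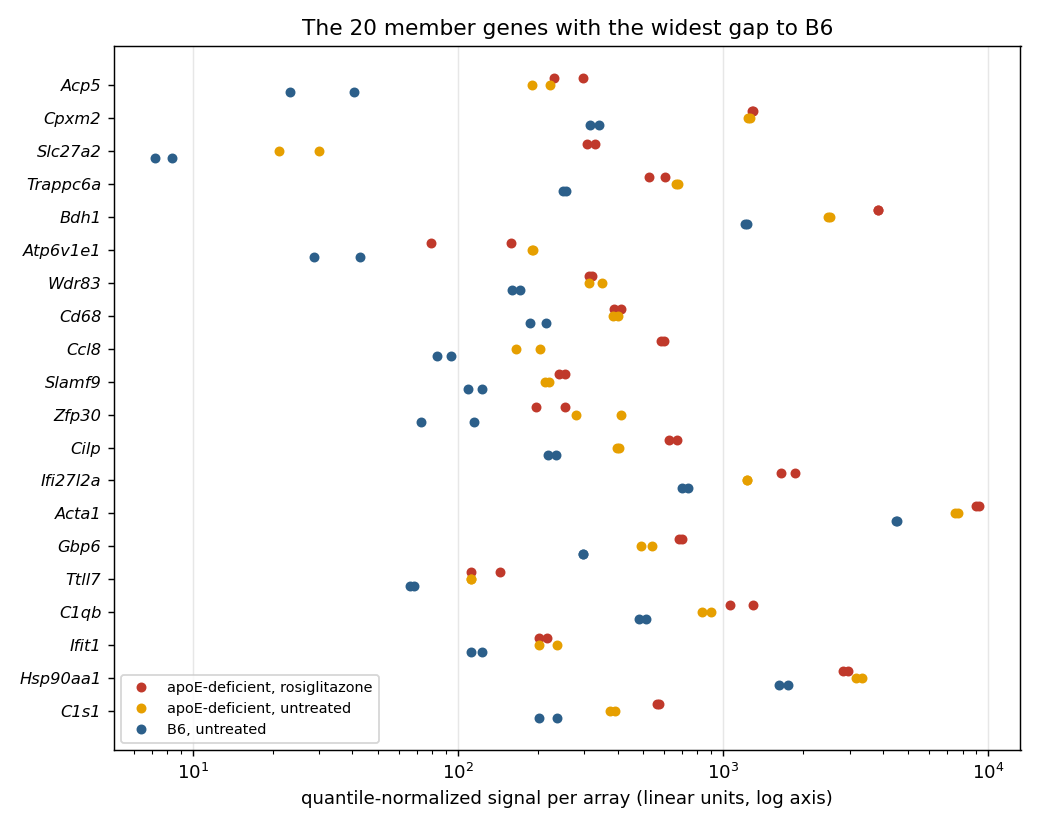
Normalized signal (log axis) of the 20 member genes with the largest ratio of the lowest apoE-deficient array to the higher B6 array, 1 point per array, with the rosiglitazone group, the untreated apoE-deficient group and the B6 group in separate colours. Each gene is shown by the member probe set with its largest ratio, so that C1qb is not its brightest probe set. Acp5 and Cpxm2 have the widest gaps, and Slc27a2, Bdh1 and Ccl8 are among the genes whose rosiglitazone points also lie well above the untreated apoE-deficient points.

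Grouped by what they are known to do, the 100 genes held 16 genes of macrophages and other leukocytes, 8 complement and acute phase proteins, 4 chemokines and adhesion molecules, 6 interferon-induced genes, 2 cholesterol efflux transporters, 11 genes of lipid and energy metabolism, 8 of the extracellular matrix and secreted proteins, 8 of contractile fibres and cytoskeleton, 5 of stress and redox defence and 32 others. This grouping was made after the values were seen. Beside it, 28 of the 100 genes belong to at least 1 of the pathway and cell type lists drawn up for the series.

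Between the rosiglitazone and untreated apoE-deficient hearts, 21 of the 96 member probe sets that reach a mean signal of 100 with either group left out passed higher and 4 lower with limma (adjusted p under 0.05), which is 21.9% and 4.17%. Over all 27022 probe sets tested, 10% passed higher and 9.81% lower (19.8% in either direction), and over those with a mean signal of 100 or more 14.7% and 16.5%. The share of the 96 past the test in either direction, 26%, was somewhat below the 31.1% of probe sets of that brightness, with more of it on the higher side. With the other 13 included, 25 of 109 lie past the threshold higher and 7 lower. The median log2 difference was 0.046 over the 109 and 0.044 over the 96, against -0.016 over all tested probe sets, and over the 109 it depends on scaling, which moved it to 0.17 with array medians and to 0.27 with hybridization controls.

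By gene, each read by its brightest member probe set, 19 of the 89 genes that can be tested passed higher and 4 lower (21.3% and 4.49%). Of all genes, each read by its brightest tested probe set, 11.5% passed higher and 12.3% lower. Of the 9 such genes of lipid and energy metabolism 6 were higher, of the 6 interferon-induced genes 4 were higher, and both cholesterol efflux transporters were higher, with none lower in these groups. Of the 14 macrophage and leukocyte genes none passed in either direction. The 7 complement and acute phase genes held both directions, with C1s1 and Cp higher and C1qb lower. Of the 5 stress and redox genes 3 were lower and none higher. Of these 3, Lonrf1 is on none of the lists drawn up for the series, so its place in the group rests on the grouping alone. Whether the role groups differ was not tested. Under 17 alternative settings, 9 of the 19 higher genes kept their call in all (Abca1, Abcg1, Bdh1, Ccl8, Cilp, Col8a1, Ifi27, Myot and Scd2). None of the 4 lower genes (C1qb, Mt2, Srxn1 and Lonrf1) did, and all 4 turned to higher values on the unscaled signals, where 99.9% of all calls were higher.

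The calls also depend on which probe set reads a gene. The array has 80 further probe sets of the member genes with a mean signal of 100 or more, and of these 27 passed higher and 11 lower. Of all probe sets of that brightness 14.7% passed higher and 16.5% lower. Among the 34 genes whose member probe set did not pass and that have such a further probe set, 17 had one that passed. It was higher for Ap1s2, Clu, Cnn3, Fgl2, Gda, Plpp1, Slk, Sox17, Tpm3 and Vcam1, lower for Hsp90aa1, Sae1, Spin1, Synpo and Tigar, and in both directions for Cgrrf1 and Phf20l1. Where a gene is said below not to pass, this refers to its member probe set.

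**Figure D2:**
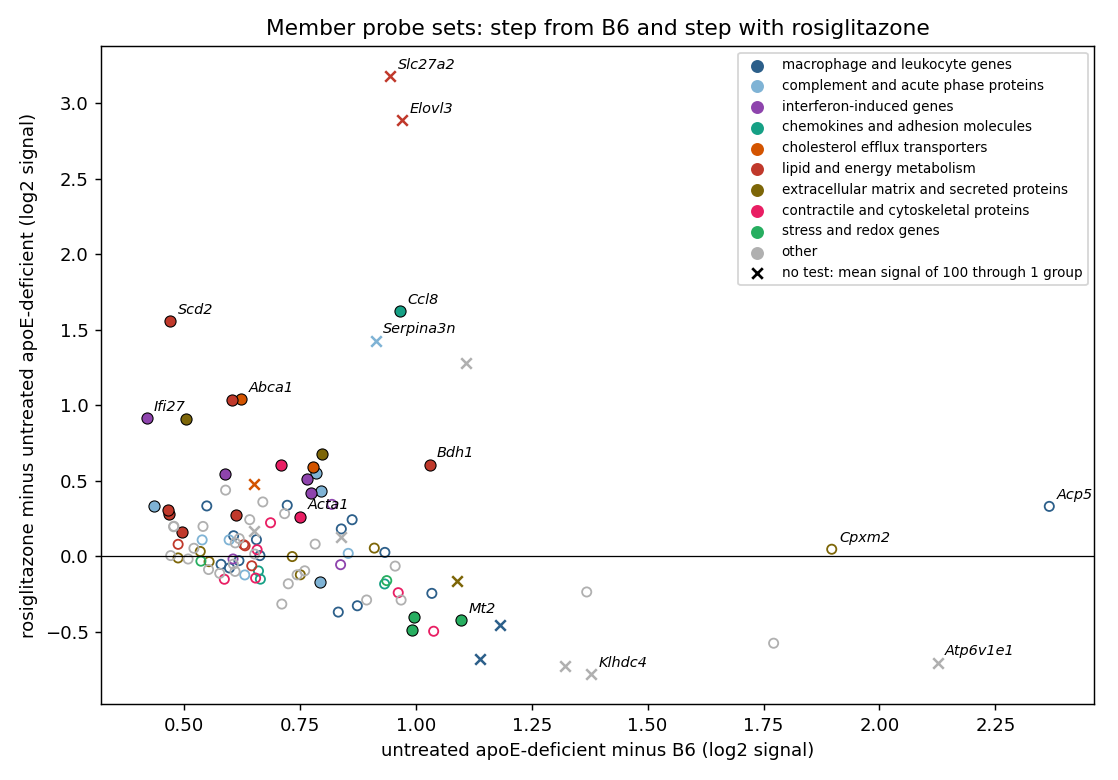
Each member probe set by its log2 difference from B6 in untreated apoE-deficient hearts (x axis) and in rosiglitazone hearts minus untreated apoE-deficient hearts (y axis), with filled points for probe sets past limma's adjusted p of 0.05 in the second difference and crosses for the 13 that reach a mean signal of 100 only through 1 of these groups and have no test. The first difference was used to choose the probe sets and is above 0 for all of them. Most points lie near 0 on the y axis, the crosses of Slc27a2 and Elovl3 stand highest at 3.18 and 2.89, and Ccl8 and Scd2 are the highest filled points at 1.63 and 1.56.

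Macrophage and leukocyte genes formed the largest named group. Acp5, the tartrate-resistant acid phosphatase of osteoclasts and activated macrophages, had 230.0 and 297 in rosiglitazone hearts, 189.7 and 223 in untreated apoE-deficient hearts and 23.2 and 40.4 in B6 hearts. The 4 apoE-deficient arrays were all far above B6, with group means 8.28 times B6 in rosiglitazone hearts and 6.48 times B6 in untreated apoE-deficient hearts. The lowest of them was 4.69 times the higher B6 array, the largest such ratio of all members. The B6 signals of Acp5 were low and differed between the B6 arrays, so these folds and this ratio are not exact values. The apoE-deficient groups differed from each other by 0.33 ± 0.23 (SE, n = 2 each) on the log2 scale, which did not pass (adjusted p = 0.362).

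Cd68, a lysosomal glycoprotein used as a macrophage marker, had signals of 388 and 412 with rosiglitazone, 385 and 401 in untreated apoE-deficient mice and 186 and 216 in B6 mice. The apoE-deficient arrays overlapped and were about 2 times B6, at 1.99 and 1.96 times the B6 mean, and the log2 difference between them was 0.025 ± 0.11 (SE). Lyz2, the lysozyme of macrophages and neutrophils, is among the brightest members. It had 4029.9 and 3946 in the rosiglitazone group, 4106 and 4176 in the untreated apoE-deficient group and 2768 and 2764 in the B6 group, and here the rosiglitazone arrays lay just below the untreated apoE-deficient arrays. Mpeg1, the pore-forming perforin-2 of macrophages, had 423 and 494 in rosiglitazone hearts, 339 and 381 in untreated apoE-deficient hearts and 178 and 255 in B6 hearts, with the rosiglitazone arrays highest (0.34 ± 0.16, adjusted p = 0.186).

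Slamf9, a receptor of the SLAM family of leukocytes, had signals of 241 and 253 with rosiglitazone, 219.6 and 213 in untreated apoE-deficient mice and 109 and 124 in B6 mice. Its groups did not overlap and stood in the order rosiglitazone, untreated apoE-deficient, B6. The order of the apoE-deficient groups was the reverse for Itgb2, the beta chain of the leukocyte integrins, at 251 and 237 in the rosiglitazone group, 289 and 294 in the untreated apoE-deficient group and 118 and 158 in the B6 group. Ptpn6, a phosphatase that dampens signalling in blood cells, had 132 and 134 in rosiglitazone hearts, 183 and 168 in untreated apoE-deficient hearts and 88.8 and 98.1 in B6 hearts, again with the rosiglitazone arrays between the other groups. Neither passed the test between the apoE-deficient groups (adjusted p = 0.29 for Itgb2 and 0.127 for Ptpn6).

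Prkcb, a protein kinase C that acts in lymphocyte and macrophage signalling, had signals of 103 and 95.1 with rosiglitazone, 179 and 153 in untreated apoE-deficient mice and 71.3 and 67.1 in B6 mice. The rosiglitazone arrays lay between the other groups, with a log2 difference from untreated apoE-deficient hearts of -0.68 ± 0.18 (SE). Without the untreated apoE-deficient arrays its mean signal is 84.2, so the gene is a member through their level and the difference has no test.

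The other 8 genes of the group did not lie past the threshold between the apoE-deficient groups by their member probe sets. A brighter probe set of Fgl2, a prothrombinase of macrophages and a secreted regulator of T cells, passed higher (0.59, adjusted p = 0.00717), against -0.030 for the member probe set. Wfdc17, Ms4a7, Ms4a6d, Cd53, Lcp1 and Coro1a, the last 2 of which bind actin in leukocytes, and Fgl2, Ly86 and the genes above covered folds of 1.42 to 8.28 against B6 in rosiglitazone hearts and 1.497 to 6.48 in untreated apoE-deficient hearts. Over the 16 genes the median fold was 1.74 in rosiglitazone hearts and 1.85 in untreated apoE-deficient hearts, and the median log2 difference between them was -0.013. Lcp1 is measured by a pair of member probe sets, with log2 differences of 0.33 and 0.0039, neither past the test.

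The whole macrophage marker list shows which genes were not among the members. Of its 17 tested genes 6 are members (Cd68, Lyz2, C1qa, C1qb, C1qc and Mpeg1), and 9 of 17 had all 4 apoE-deficient arrays above both B6 arrays, against 10.5% of all 13236 tested genes. The 6 members are among these 9 by the rule, so the share is no separate reading. Csf1r, the receptor that macrophages need to survive, had 2477 and 2556 in rosiglitazone hearts, 2083 and 2158 in untreated apoE-deficient hearts and 2434 and 2641 in B6 hearts, and Mrc1, Cd163 and Cx3cr1 likewise had an apoE-deficient array at or below a B6 array. Adgre1, the F4/80 surface marker of mouse macrophages, had 401 and 391, 604 and 614, and 303 and 313 in the same order of groups, with a ratio of 1.25 that fell short of the rule. The sum of the list was 15808 and 15846 in rosiglitazone hearts, 14861 and 15053 in untreated apoE-deficient hearts and 11082 and 11339 in B6 hearts. The sum includes the 6 members, which were chosen for lying above B6, so its distance from B6 partly follows from the rule. In pieces of whole tissue, a change in the number of cells of a type and a change in RNA per cell cannot be told apart.

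**Figure D3:**
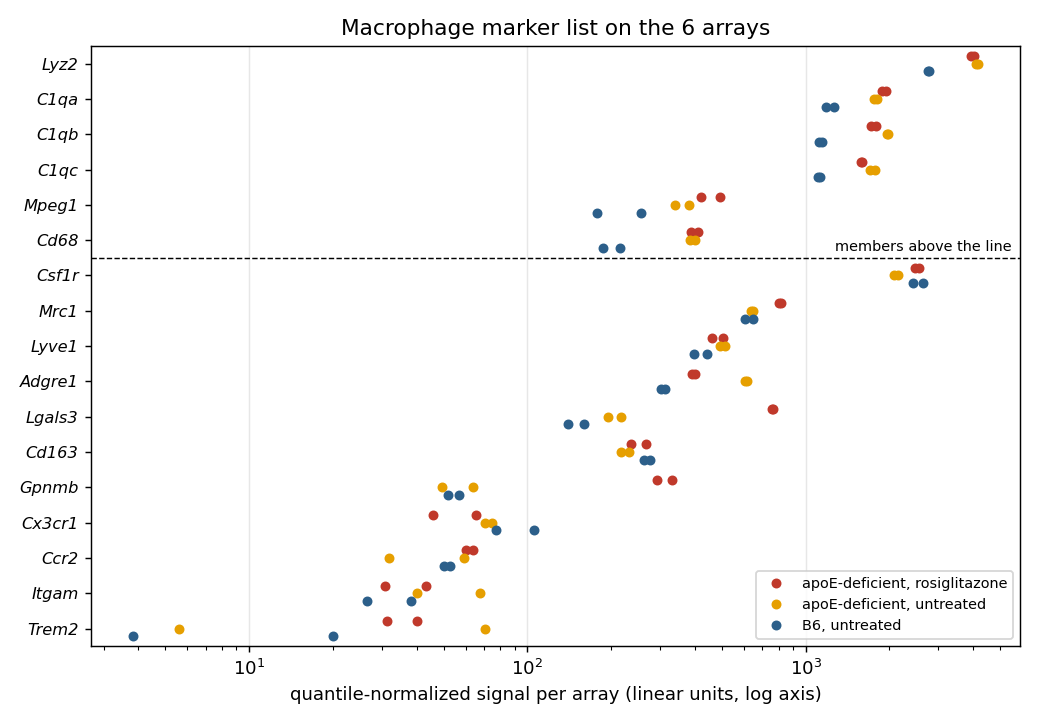
Normalized signal (log axis) of the tested genes of the macrophage list, 1 point per array, with the rosiglitazone, untreated apoE-deficient and B6 groups in separate colours and each gene shown by its brightest probe set. The 6 members have all apoE-deficient points above the B6 points, while Csf1r, Mrc1, Cd163 and Cx3cr1 do not, and Lgals3 and Gpnmb are high in the rosiglitazone group.

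Complement and acute phase proteins gave 8 member genes. The chains of C1q, the protein that starts the classical complement pathway and is made in large amounts by macrophages, were all members. C1qa had 1951 and 1890.3 in the rosiglitazone group, 1762 and 1801 in the untreated apoE-deficient group and 1264 and 1182 in the B6 group, and C1qc had 1598 and 1585 in rosiglitazone hearts, 1775 and 1698 in untreated apoE-deficient hearts and 1105 and 1128 in B6 hearts. For both, the apoE-deficient groups were 1.46 to 1.57 (C1qa) and 1.43 to 1.55 (C1qc) times B6, and they did not differ from each other past the test. C1qb was read by 2 member probe sets that moved in opposite directions between the apoE-deficient groups. The brighter one had signals of 1714 and 1790.0 with rosiglitazone, 1959.5 and 1983 in untreated apoE-deficient mice and 1145 and 1122 in B6 mice and passed lower (-0.17 ± 0.052 SE, adjusted p = 0.0486), a call kept under 4 of 17 alternatives and lost when any 1 array was left out (-0.14 to -0.20). The dimmer had 1295 and 1062 in the rosiglitazone group, 901 and 836 in the untreated apoE-deficient group and 509.8 and 482 in the B6 group and passed higher (0.43 ± 0.10 SE, adjusted p = 0.0137), so no direction is given for the gene.

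C1s1, a protease that C1q activates, had 561 and 575 in rosiglitazone hearts, 393 and 375 in untreated apoE-deficient hearts and 202 and 236 in B6 hearts. The 3 groups were fully separated, and rosiglitazone hearts were higher than untreated apoE-deficient hearts by 0.55 ± 0.10 (SE, adjusted p = 0.00518). Serpina3n, an acute phase inhibitor of serine proteases, had signals of 359.9 and 301 with rosiglitazone, 109.8 and 121 in untreated apoE-deficient mice and 74.8 and 41.3 in B6 mice. It stood lowest in B6 and highest with rosiglitazone, with a log2 difference of 1.43 ± 0.23 (SE) between the apoE-deficient groups. Its mean signal without the rosiglitazone arrays is 86.7, so this difference has no test.

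Cp, the copper carrier ceruloplasmin, had 700.1 and 822 in the rosiglitazone group, 594 and 606 in the untreated apoE-deficient group and 434 and 447 in the B6 group, and passed higher by 0.33 ± 0.089 (SE, adjusted p = 0.0293), with the call lost without rosiglitazone replicate 2 (0.22), untreated apoE-deficient replicate 1 (0.32) or untreated apoE-deficient replicate 2 (0.35). Its brightest other probe set, at 1379 and 1414, 1429 and 1319, and 1061 and 1002 in the same order of groups, had a log2 difference of 0.024, while 4 of its 6 other bright probe sets passed higher, by 0.46 to 0.87. Some of these had the untreated apoE-deficient arrays below B6, for example at 729 and 696, 458 and 450, and 514 and 490 in that order. Clu, the secreted chaperone clusterin that is also an apolipoprotein, is the brightest member, at 9452 and 8530.4 in rosiglitazone hearts, 8465 and 8199 in untreated apoE-deficient hearts and 5408 and 5598 in B6 hearts. It stood at 1.63 times B6 in rosiglitazone hearts and 1.51 times B6 in untreated apoE-deficient hearts, and the log2 difference between their groups, 0.11 ± 0.050 (SE), changed sign and passed lower with trimmed-mean, median and hybridization control scaling. Another of its bright probe sets passed higher (0.33, adjusted p = 0.00056). Cfp, the complement stabiliser properdin, had signals of 186 and 164 with rosiglitazone, 133 and 222 in untreated apoE-deficient mice and 91.5 and 89.0 in B6 mice, with overlapping apoE-deficient groups.

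The list of complement and acute phase genes holds other genes of the pathway. Of its 16 tested genes 6 are members, 9 had all 4 apoE-deficient arrays above both B6 arrays and none had all 4 below, where 10.5% and 13.2% of all genes did. The 6 members, chosen for lying above B6, are among the 9. In rosiglitazone against untreated apoE-deficient hearts 6 passed higher and 1 lower with each gene read by its brightest probe set, with a median log2 difference of 0.50, where 11.5% of all genes passed higher and 12.3% lower. The 6 include Serpina3n, which is a member through its rosiglitazone level.

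The 4 chemokines and adhesion molecules were split. Ccl8, a chemokine that draws in monocytes and T cells, had 584 and 596 in the rosiglitazone group, 166 and 204 in the untreated apoE-deficient group and 83.7 and 93.9 in the B6 group. The 3 groups were widely separated, with rosiglitazone hearts at 6.65 and untreated apoE-deficient hearts at 2.08 times B6, and the step between the apoE-deficient groups was 1.63 ± 0.13 (SE, adjusted p = 7.17e-05). Ccl9, a chemokine of macrophages, had 194 and 179 in rosiglitazone hearts, 208 and 219 in untreated apoE-deficient hearts and 99.9 and 113 in B6 hearts. Its apoE-deficient groups lay close together, with rosiglitazone slightly lower (-0.18 ± 0.14 SE, adjusted p = 0.411). Vcam1, which holds leukocytes on the vessel wall, had signals of 203 and 211 with rosiglitazone, 236 and 226 in untreated apoE-deficient mice and 142 and 142 in B6 mice. Icam1, a second adhesion molecule of the endothelium, had 296 and 271 in the rosiglitazone group, 290.0 and 319 in the untreated apoE-deficient group and 196 and 181 in the B6 group. Both were above B6 on all apoE-deficient arrays, and neither member probe set passed between the apoE-deficient groups. A brighter probe set of Vcam1, at 587 and 545, 445 and 386, and 308 and 279 in the same order of groups, passed higher (0.44, adjusted p = 0.0167), opposite in sign to the member probe set (-0.15). Of the 21 tested genes of the chemokine and cytokine list, 6 passed higher and 3 lower, where 11.5% of all genes passed higher and 12.3% lower.

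Of the 6 interferon-induced genes, 4 were higher again in rosiglitazone than in untreated apoE-deficient hearts. Ifi27l2a, a small membrane protein induced by type I interferon, had 1655 and 1863 in rosiglitazone hearts, 1226 and 1228 in untreated apoE-deficient hearts and 699 and 737 in B6 hearts. The groups were separate, at 2.45 times B6 in rosiglitazone hearts and 1.71 times B6 in untreated apoE-deficient hearts, and differed from each other by 0.51 ± 0.070 (SE, adjusted p = 0.00105). Its relative Ifi27 had signals of 1709 and 1578 with rosiglitazone, 862 and 867 in untreated apoE-deficient mice and 641 and 646 in B6 mice. Rosiglitazone hearts had 1.90 times the level of untreated apoE-deficient hearts (0.92 ± 0.064 SE, adjusted p = 2.56e-05), and untreated apoE-deficient hearts had 1.34 times the level of B6 hearts.

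Ifit3, one of the proteins that bind foreign RNA, had 464 and 435 in the rosiglitazone group, 287 and 322 in the untreated apoE-deficient group and 199.8 and 197 in the B6 group and was higher with rosiglitazone by 0.55 ± 0.10 (SE, adjusted p = 0.00632), not past the test without rosiglitazone replicate 1 (0.50). Gbp6, a guanylate-binding GTPase, had 699.6 and 681 in rosiglitazone hearts, 538 and 489 in untreated apoE-deficient hearts and 296 and 295 in B6 hearts and was higher by 0.42 ± 0.084 (SE, adjusted p = 0.00775), not past the test without rosiglitazone replicate 1 (0.40). Ifit1, the neighbour and relative of Ifit3, behaved otherwise: it had signals of 218 and 202 with rosiglitazone, 236 and 202 in untreated apoE-deficient mice and 112 and 123 in B6 mice, with overlapping apoE-deficient groups. Mndal, a nuclear protein of the interferon-inducible DNA-binding family, had 969 and 975 in the rosiglitazone group, 943 and 1029 in the untreated apoE-deficient group and 629 and 659 in the B6 group, with groups that also overlapped. Of the 24 tested genes of the interferon list 3 are members and 12 had all 4 apoE-deficient arrays above both B6 arrays, while 11 passed higher in rosiglitazone than in untreated apoE-deficient hearts and none lower (median log2 difference 0.47). The 3 members are among the 12 by the rule. Over all genes 11.5% passed higher and 12.3% lower.

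The promoters of 3 interferon-induced members are shown for a known control element. Those of Ifi27, Ifi27l2a and Gbp6 are not in the promoter table. The element searched, GAAA, any 2 bases and GAAA on either strand, is the core of the interferon-stimulated response element. In the 250 bases before the gene start, from RefSeq on GRCm38.p6, it occurred in 2.98% of 32851 promoters. It occurred in 3 of the 3 interferon-induced members that the promoter table holds. The percentage counts promoters, while a gene counts if any of its promoters has a match. The sequences run 5′ to 3′ on the strand of the gene, with matches in capitals; Ifit1 (chr19:34640639-34640888, plus strand) and Ifit3 (chr19:34583279-34583528, plus strand) have 2 matches each, and Mndal (chr1:173880188-173880437, minus strand) has 1.
Ifit1: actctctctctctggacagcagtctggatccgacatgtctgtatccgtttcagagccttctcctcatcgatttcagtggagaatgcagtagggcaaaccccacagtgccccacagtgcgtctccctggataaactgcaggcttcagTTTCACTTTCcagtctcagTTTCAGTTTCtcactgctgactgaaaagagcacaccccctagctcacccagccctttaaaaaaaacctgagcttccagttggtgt
Ifit3: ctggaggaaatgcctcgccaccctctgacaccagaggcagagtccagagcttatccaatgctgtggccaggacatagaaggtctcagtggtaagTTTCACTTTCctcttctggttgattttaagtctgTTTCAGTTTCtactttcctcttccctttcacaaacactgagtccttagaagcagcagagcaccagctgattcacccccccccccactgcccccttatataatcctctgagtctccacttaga
Mndal: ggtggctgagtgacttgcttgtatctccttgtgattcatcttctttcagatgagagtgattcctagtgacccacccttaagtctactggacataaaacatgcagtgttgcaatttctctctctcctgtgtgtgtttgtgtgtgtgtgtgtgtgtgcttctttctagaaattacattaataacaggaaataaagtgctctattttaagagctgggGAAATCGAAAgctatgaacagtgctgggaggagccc
A match is a description of these letters and not a measured binding site, and the promoter of Glul held the element too. Ifit1 and Ifit3 both carry a pair of matches, yet Ifit3 passed higher with rosiglitazone and Ifit1 did not.

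Both transporters that move cholesterol out of cells were members, and both were higher again with rosiglitazone. Abca1, which loads cholesterol onto apolipoprotein A-I, had 2207 and 2227 in rosiglitazone hearts, 1012 and 1135 in untreated apoE-deficient hearts and 700.1 and 684 in B6 hearts. The arrays fell into 3 tight and separate pairs, with 1.55 times B6 in untreated apoE-deficient hearts and 3.20 times B6 in rosiglitazone hearts. The difference between the apoE-deficient groups was 1.04 ± 0.067 (SE, adjusted p = 1.62e-05). A dimmer member probe set of Abca1 ran the same way (0.48), with no test. Abcg1, which loads cholesterol onto high-density lipoprotein, had signals of 565 and 570.1 with rosiglitazone, 361 and 385 in untreated apoE-deficient mice and 198 and 228 in B6 mice and differed by 0.59 ± 0.10 (SE, adjusted p = 0.00343).

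The promoter of Abca1 is shown for its liver X receptor element, a direct repeat of a short recognition sequence. The letters searched, GGTNA, any 5 bases and GGTNA on either strand, occurred in 0.621% of the 32851 promoters. They occurred in 3 of the 73 member genes in the table (Abca1, Cpxm2 and Tmem150c), where a gene counts if any of its promoters has a match. The Abca1 sequence is chr4:53159896-53160145 of GRCm38.p6, minus strand, 5′ to 3′, with the match in capitals 53 bases before the start.
Abca1: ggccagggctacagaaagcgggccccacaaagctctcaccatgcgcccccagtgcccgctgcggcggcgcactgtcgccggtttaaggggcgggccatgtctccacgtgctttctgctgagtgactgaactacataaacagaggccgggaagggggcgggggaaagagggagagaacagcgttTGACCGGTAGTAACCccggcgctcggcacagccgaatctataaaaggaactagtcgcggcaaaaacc
In the efflux and apolipoprotein list, 9 of 15 tested genes passed higher and 1 lower between the apoE-deficient groups (all genes 11.5% and 12.3%), and 8 had all 4 apoE-deficient arrays above both B6 arrays (all genes 10.5%). Abca1 and Abcg1 are among the 8 by the rule. Mylip, a liver X receptor target that degrades the LDL receptor, had 1266 and 1233 in rosiglitazone hearts, 722 and 676 in untreated apoE-deficient hearts and 600.4 and 653 in B6 hearts, a ratio of 1.04 that left it outside the rule. Nr1h3, the liver X receptor alpha itself, differed by 0.065 between the apoE-deficient groups and did not pass.

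Among the genes of lipid and energy metabolism, Slc27a2 and Elovl3 had the highest rosiglitazone levels relative to the other groups. Slc27a2, a fatty acid transporter and very long chain acyl-CoA synthetase, had 329.7 and 308 in the rosiglitazone group, 29.8 and 21.1 in the untreated apoE-deficient group and 7.22 and 8.32 in the B6 group. The B6 signals are below the pseudocount of 11.1 and the untreated apoE-deficient signals are low, so no exact fold over B6 is given. The log2 difference between the apoE-deficient groups was 3.18 ± 0.26 (SE), and since the mean signal without the rosiglitazone arrays is 16.6, it has no test. Elovl3, an elongase of fatty acids in brown fat and skin, had 521 and 544 in rosiglitazone hearts, 68.8 and 56.3 in untreated apoE-deficient hearts and 42.0 and 15.3 in B6 hearts, with B6 and untreated apoE-deficient arrays again low. Its log2 difference of 2.89 ± 0.30 (SE) has no test either, with a mean signal of 45.6 without the rosiglitazone arrays. Both genes are on the brown adipocyte list, of which 11 genes were tested, 5 passed higher and 2 lower, against 11.5% and 12.3% of all genes. The 5 include Slc27a2 and Elovl3 themselves, which are members through their rosiglitazone level, beside Ucp1, Otop1 and Dio2.

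Many fat cell and airway markers were higher in rosiglitazone than in untreated apoE-deficient hearts, but not all. In the white adipocyte list 9 of 13 tested genes passed higher, and in the airway and lung list 7 of 10, where 11.5% of all genes did. Ppara (-0.41) and Ppargc1a (-0.58) of the brown adipocyte list and Plin4 (-0.55) of the white adipocyte list passed lower. The brown adipocyte list summed to 36258 and 35252 in rosiglitazone hearts, 29718 and 29535 in untreated apoE-deficient hearts and 28951 and 28340 in B6 hearts, with Zic1 under 20 in mean signal. Ucp1, the uncoupling protein that defines brown fat, had 6196 and 6243 in rosiglitazone hearts, 3.15 and 4.81 in untreated apoE-deficient hearts and 42.4 and 7.52 in B6 hearts. The white adipocyte list summed to 55732 and 55471, 32699 and 32778, and 35117 and 34131 in the same order of groups, with Lep under 20, and the airway and lung list to 16693 and 17564, 264 and 284, and 199 and 237. Neither of the last 2 lists has a member, and the part of these tissues in the steps with rosiglitazone was not tested. In untreated apoE-deficient against B6 hearts the white adipocyte sum was lower and the brown adipocyte sum slightly higher. Most of the brown sum is Cox7a1 and Cox8b (12487 and 14657 in untreated apoE-deficient replicate 1). Most of the white sum is Lpl and Fabp4 (16093 and 7746 in that array). These genes were bright on every array, so the sums say little about fat cells. Adipoq was lower in untreated apoE-deficient than in B6 hearts (84.9 and 87.4 against 177 and 154). Dio2 was higher (62.0 and 69.1 against 48.7 and 46.9). For Ucp1 no direction is given between these groups, since its signals there were low and its B6 arrays differed widely (42.4 and 7.52).

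Scd2, a desaturase that makes monounsaturated fatty acids, had signals of 1753 and 1629.9 with rosiglitazone, 548 and 585 in untreated apoE-deficient mice and 421 and 391 in B6 mice. It was close to the edge of the rule and rose 2.98-fold with rosiglitazone (1.56 ± 0.076 SE, adjusted p = 3.11e-06). Elovl5, an elongase of polyunsaturated fatty acids, had 1424 and 1651 in the rosiglitazone group, 1276 and 1206 in the untreated apoE-deficient group and 891 and 899 in the B6 group, a smaller step of 0.30 ± 0.076 (SE, adjusted p = 0.0217) that was lost without rosiglitazone replicate 2 (0.20), untreated apoE-deficient replicate 1 (0.34) or untreated apoE-deficient replicate 2 (0.26). Among the 20 tested genes on the list for lipogenesis and triglyceride synthesis, 14 passed higher and 4 lower (11.5% and 12.3% of all genes did), while only 2 had all 4 apoE-deficient arrays above both B6 arrays, and those are Scd2 and Elovl5.

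Bdh1, the mitochondrial enzyme that interconverts the main ketone bodies, had 3828 and 3827 in rosiglitazone hearts, 2485 and 2536 in untreated apoE-deficient hearts and 1215 and 1233 in B6 hearts. The 3 groups were separate pairs, with rosiglitazone hearts 3.13 and untreated apoE-deficient hearts 2.05 times B6, and the step between them was 0.61 ± 0.044 (SE, adjusted p = 3.49e-05). A second member probe set of Bdh1 moved the same way (1.03 ± 0.10 SE, adjusted p = 0.000164).

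Glul, the enzyme that makes glutamine, had signals of 4548 and 4253 with rosiglitazone, 3516 and 3749 in untreated apoE-deficient mice and 2360.0 and 2386 in B6 mice and passed higher by 0.28 ± 0.050 (SE, adjusted p = 0.00486). Its other bright probe set, at 1159 and 1249, 1598 and 1577, and 1156 and 1087 in the same order of groups, passed lower by 0.40 on the log2 scale, so the probe sets disagree. Pgam1, a glycolytic mutase, had 1205 and 1141 in the rosiglitazone group, 955 and 969 in the untreated apoE-deficient group and 709 and 675 in the B6 group and passed higher by 0.28 ± 0.064 (SE, adjusted p = 0.0142), a call lost without rosiglitazone replicate 1 (0.24), untreated apoE-deficient replicate 1 (0.27) or untreated apoE-deficient replicate 2 (0.29).

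Ugp2, which makes UDP-glucose for glycogen, had 4540.2 and 4422 in rosiglitazone hearts, 4000.3 and 4009 in untreated apoE-deficient hearts and 2769.7 and 2909 in B6 hearts; its step of 0.16 ± 0.042 (SE, adjusted p = 0.0266) was lost without rosiglitazone replicate 1 (0.14), untreated apoE-deficient replicate 1 or 2 (0.16 each) and turned to -0.059 with trimmed-mean scaling. Tigar, which lowers glycolytic flux, the guanine deaminase Gda and the lipid phosphatase Plpp1 did not pass between the apoE-deficient groups by their member probe sets. Another probe set passed for each, higher for Plpp1 (0.96, adjusted p = 5.75e-05) and Gda (0.60, adjusted p = 0.00178) and lower for Tigar (-0.30, adjusted p = 0.032). By that probe set of Plpp1, untreated apoE-deficient hearts (737 and 839) were below B6 hearts (1052 and 982).

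Matrix and secreted proteins held the gene with the second largest ratio of the lowest apoE-deficient array to the higher B6 array. Cpxm2, a secreted protein of the carboxypeptidase family, had signals of 1294 and 1288 with rosiglitazone, 1239 and 1262 in untreated apoE-deficient mice and 339.8 and 316 in B6 mice. All 4 apoE-deficient arrays lay within 1239 to 1294 and at 3.94 and 3.81 times B6 in rosiglitazone and untreated apoE-deficient hearts, with 0.046 ± 0.067 (SE) between those groups. A dimmer member probe set of Cpxm2 gave 112 and 117 in the rosiglitazone group, 121 and 139.5 in the untreated apoE-deficient group and 55.8 and 54.8 in the B6 group, the same separation from B6.

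Cilp, a matrix protein of cartilage and scarred heart that binds TGF-beta, had 626 and 669.9 in rosiglitazone hearts, 398 and 405 in untreated apoE-deficient hearts and 234 and 219 in B6 hearts. The rosiglitazone arrays were highest, with a difference from untreated apoE-deficient hearts of 0.67 ± 0.089 (SE, adjusted p = 0.000919). Col8a1, a short-chain collagen of vessel walls, had signals of 954 and 849.7 with rosiglitazone, 444 and 508 in untreated apoE-deficient mice and 325 and 338 in B6 mice and a step of 0.91 ± 0.10 (SE, adjusted p = 0.000262). Timp3, a matrix-bound inhibitor of metalloproteinases, had 2742 and 2923 in the rosiglitazone group, 2907 and 2899 in the untreated apoE-deficient group and 1949 and 1999 in the B6 group, with overlapping apoE-deficient groups. The other matrix and secreted members, Ecrg4, Adam15, Bambi and the collagen cross-linking oxidase Loxl3, had folds of 1.43 to 2.01 in rosiglitazone hearts and did not pass between the apoE-deficient groups. Of the 39 tested genes of the matrix list 21 passed higher and 2 lower, where 11.5% and 12.3% of all genes did, and Col8a1 and Timp3 are its only members. The fibroblast list, which has no member, had 12 of 15 tested genes higher and none lower. It summed to 54748 and 53245 in rosiglitazone hearts, 43184 and 43199 in untreated apoE-deficient hearts and 45874 and 46284 in B6 hearts, and its part in the matrix genes' steps was not tested.

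Among the contractile and cytoskeletal proteins, Acta1, the skeletal alpha-actin that the stressed heart makes again, had 8991 and 9255 in rosiglitazone hearts, 7495 and 7715 in untreated apoE-deficient hearts and 4533 and 4494 in B6 hearts. All apoE-deficient arrays were far above B6, and the step between their groups, 0.26 ± 0.035 (SE, adjusted p = 0.001), turned to -0.26 with trimmed-mean, -0.19 with median and -0.085 with hybridization control scaling. Myot, the Z-disc protein myotilin, had signals of 2547 and 2563 with rosiglitazone, 1733 and 1621 in untreated apoE-deficient mice and 1051 and 992 in B6 mice, in 3 separate pairs, and passed higher by 0.60 ± 0.057 (SE, adjusted p = 0.000143) under all 17 alternatives. Clic5, a membrane-cytoskeleton protein, had 1449 and 1380.3 in the rosiglitazone group, 1556 and 1574 in the untreated apoE-deficient group and 982 and 998 in the B6 group. Its apoE-deficient groups were close to each other, and like the member probe sets of Rhou, Tpm3, Cnn3, Slk and Synpo it did not pass between them. Of the 4 other bright probe sets of Cnn3, an actin-binding calponin, 3 passed higher (by 0.50 or more). Brighter ones of the tropomyosin Tpm3 (0.45) and the kinase Slk (0.35) passed higher too, while one of the actin-associated protein Synpo passed lower (-0.88). Not all of these lay above B6. Untreated apoE-deficient against B6 hearts had 686 and 849 against 1025 and 1025 for Slk and 990 and 976 against 961 and 984 for Tpm3. Cnn3 had 553 and 554 against 611 and 665 by one and 1247 and 1211 against 1161 and 1125 by another. For Synpo, rosiglitazone hearts (293 and 324) were below B6 hearts (457 and 368). Of the skeletal muscle list, Acta1 is the 1 member of 7 tested genes, and Myh1, Myh2, Myh4, Tnnt3 and Tnnc2 had mean signals under 20.

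Of the 5 stress and redox genes, Mt2, Srxn1 and Lonrf1 passed lower with rosiglitazone, each of them losing the call under some alternatives. Mt2, a metallothionein that binds zinc and copper, had 1441 and 1401 in rosiglitazone hearts, 1890.3 and 1931 in untreated apoE-deficient hearts and 954 and 824 in B6 hearts. Untreated apoE-deficient hearts were highest at 2.15 times B6, rosiglitazone hearts lay between at 1.60 times B6, and the difference was -0.42 ± 0.072 (SE, adjusted p = 0.00346). Its neighbour in function Mt1, at 6463 and 6558, 8442 and 8363, and 5523 and 5404 in the same order of groups, also passed lower (-0.37) and missed the rule with a ratio of 1.17.

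The Mt2 promoter is shown because its metal response elements are its best known control. The core letters searched, TGCACNC or TGCGCNC on either strand, are short and occurred in 21.4% of the 32851 promoters; the 3 matches of Mt2 were equalled or exceeded in 1.26%. The sequence is chr8:94172368-94172617 of GRCm38.p6, plus strand, 5′ to 3′, from RefSeq, with matches in capitals.
Mt2: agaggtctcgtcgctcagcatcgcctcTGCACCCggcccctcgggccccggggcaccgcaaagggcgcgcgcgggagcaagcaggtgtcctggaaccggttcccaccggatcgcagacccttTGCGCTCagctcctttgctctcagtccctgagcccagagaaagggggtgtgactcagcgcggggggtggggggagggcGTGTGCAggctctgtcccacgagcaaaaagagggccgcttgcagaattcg
Srxn1, which repairs oxidised peroxiredoxins, had signals of 146 and 152 with rosiglitazone, 206 and 221 in untreated apoE-deficient mice and 103 and 101 in B6 mice, and passed lower by -0.49 ± 0.14 (SE, adjusted p = 0.0374), a call lost when any 1 of the 4 apoE-deficient arrays was left out (-0.44 to -0.54). Its brighter other probe set had a difference of -0.25 that did not pass. Lonrf1, a RING finger protein, had 327 and 309.9 in the rosiglitazone group, 397 and 454 in the untreated apoE-deficient group and 212 and 203 in the B6 group and passed lower by -0.40 ± 0.11 (SE, adjusted p = 0.027), lost without either rosiglitazone array (-0.44 and -0.37) or untreated apoE-deficient replicate 2 (-0.31).

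Hsp90aa1, the inducible cytosolic chaperone Hsp90 alpha, had 2969.6 and 2838 in rosiglitazone hearts, 3169.8 and 3330.2 in untreated apoE-deficient hearts and 1753 and 1632 in B6 hearts. It did not pass between the apoE-deficient groups (-0.16 ± 0.054 SE, adjusted p = 0.0658) and did pass lower with trimmed-mean scaling (-0.32) and median scaling (-0.25). Both of its other bright probe sets passed lower (-0.89, adjusted p = 4.88e-05, and -0.61, adjusted p = 0.000217). By the first of these, at 1677 and 1807, 3322 and 3149, and 1666 and 1472 in the same order of groups, rosiglitazone hearts lay near B6. Hsp90aa1 is the only member among 19 tested heat shock genes, of which 14 passed lower and 2 higher with rosiglitazone, against 12.3% and 11.5% of all genes. Gclc, the catalytic subunit for glutathione synthesis, had signals of 176 and 201 with rosiglitazone, 190.4 and 195 in untreated apoE-deficient mice and 130.1 and 128 in B6 mice, with overlapping apoE-deficient groups. Of the 21 tested genes of the oxidative stress list 6 passed higher and 5 lower, beside the same 11.5% and 12.3% of all genes.

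The 32 other genes have no common role. Trappc6a, a subunit of a vesicle tethering complex, had 528 and 605 in the rosiglitazone group, 663 and 673 in the untreated apoE-deficient group and 249 and 255 in the B6 group, and the immunoglobulin-domain gene Igsf23 had 209 and 230.1 in rosiglitazone hearts, 163 and 175 in untreated apoE-deficient hearts and 91.5 and 113 in B6 hearts. Both lie on the chromosome of Apoe, 12 and 10 genes away from it in the RefSeq gene order. Of the 40 genes within 20 genes of Apoe on either side, 15 had a probe set with a mean signal of 100 or more, 2 of them are members and 2, Bcam and Pvr, met the rule turned round. Over all 8952 genes of that brightness, 100 are members and 109 met the rule turned round, a smaller share in both cases. On the whole chromosome lay 9 of the 100 member genes (9%), near the 7.28% of genes of that brightness.

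Several of these genes rest on 1 of several probe sets. Atp6v1e1, a subunit of the proton pump of lysosomes, had signals of 158 and 79.4 with rosiglitazone, 190.1 and 191 in untreated apoE-deficient mice and 28.7 and 42.6 in B6 mice by the member probe set. Its bright other probe set had 2112 and 2162 in rosiglitazone hearts, 2243 and 2346 in untreated apoE-deficient hearts and 2177 and 2266 in B6 hearts, so by that probe set the gene was not separated from B6. Ighm, the heavy chain of immunoglobulin M, had 322 and 348 in the rosiglitazone group, 116 and 149 in the untreated apoE-deficient group and 39.6 and 75.2 in the B6 group by the member probe set. The log2 difference between the apoE-deficient groups was 1.28 ± 0.24 (SE), with no test, since the mean signal without the rosiglitazone arrays is 94.9. Its brightest probe set had 1675 and 2022 in rosiglitazone hearts, 26.4 and 8.32 in untreated apoE-deficient hearts and 49.0 and 55.8 in B6 hearts, with the untreated apoE-deficient hearts below B6.

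The B and plasma cell list, which holds Ighm, summed to 2537 and 2858 in rosiglitazone hearts, 271 and 228 in untreated apoE-deficient hearts and 327 and 325 in B6 hearts. The sum was lower in untreated apoE-deficient hearts than in B6, but all its genes were under 100 in both groups. Cd79a ran the other way (32.6 and 68.2 against 12.9 and 29.5), so no direction is given for the list between these groups. The part of the list in the Ighm value was not tested. The T cell list summed to 675 and 717, 679 and 799, and 789 and 1011 in the same order of groups and has no member.

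Klhdc4, a kelch domain protein, had 116 and 112 in rosiglitazone hearts, 177 and 235 in untreated apoE-deficient hearts and 60.7 and 84.4 in B6 hearts, a log2 difference of -0.78 ± 0.20 (SE) between the apoE-deficient groups. Gnb3, a G protein beta subunit, had signals of 107 and 102 with rosiglitazone, 179 and 181 in untreated apoE-deficient mice and 77.9 and 54.9 in B6 mice, a log2 difference of -0.73 ± 0.19 (SE). Both are dim, in both the rosiglitazone arrays lay between B6 and untreated apoE-deficient hearts, and both reach a mean signal of 100 only through the untreated apoE-deficient arrays, so neither difference has a test. Another bright probe set of Klhdc4, which the rule did not choose, passed lower (-0.67, adjusted p = 0.0166).

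Wdr83, a WD-repeat scaffold protein, had 320.2 and 312 in the rosiglitazone group, 313 and 351 in the untreated apoE-deficient group and 159.6 and 172 in the B6 group, and Sae1, a subunit of the enzyme that activates SUMO, had 1026 and 1089 in rosiglitazone hearts, 1136 and 1133 in untreated apoE-deficient hearts and 720.5 and 758 in B6 hearts. The apoE-deficient groups lay close together in both and did not differ past the test. Zfp30, a zinc finger protein, had signals of 198 and 253 with rosiglitazone, 412 and 279 in untreated apoE-deficient mice and 115 and 72.5 in B6 mice, with a wide spread within the apoE-deficient groups.

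Other probe sets of the member genes give a reading that the rule did not use, though of the same RNA. For 45 of the genes the array has 80 further probe sets with a mean signal of 100 or more. In 38 of them (47.5%) all 4 apoE-deficient arrays were above both B6 arrays, against 11.3% of all probe sets of that brightness, in 38 the groups overlapped, and in 4 all apoE-deficient arrays were below. The 4 belong to Eif2b2, Phf20l1, Nudt21 and Slk. For 49 genes the member is the only probe set of that brightness, and for 9 genes both of a pair of probe sets are members. Of the member probe sets 7 and 8 carry the array's suffixes for probes shared between transcripts (s and x), and such signals can include related transcripts.

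**Figure D4:**
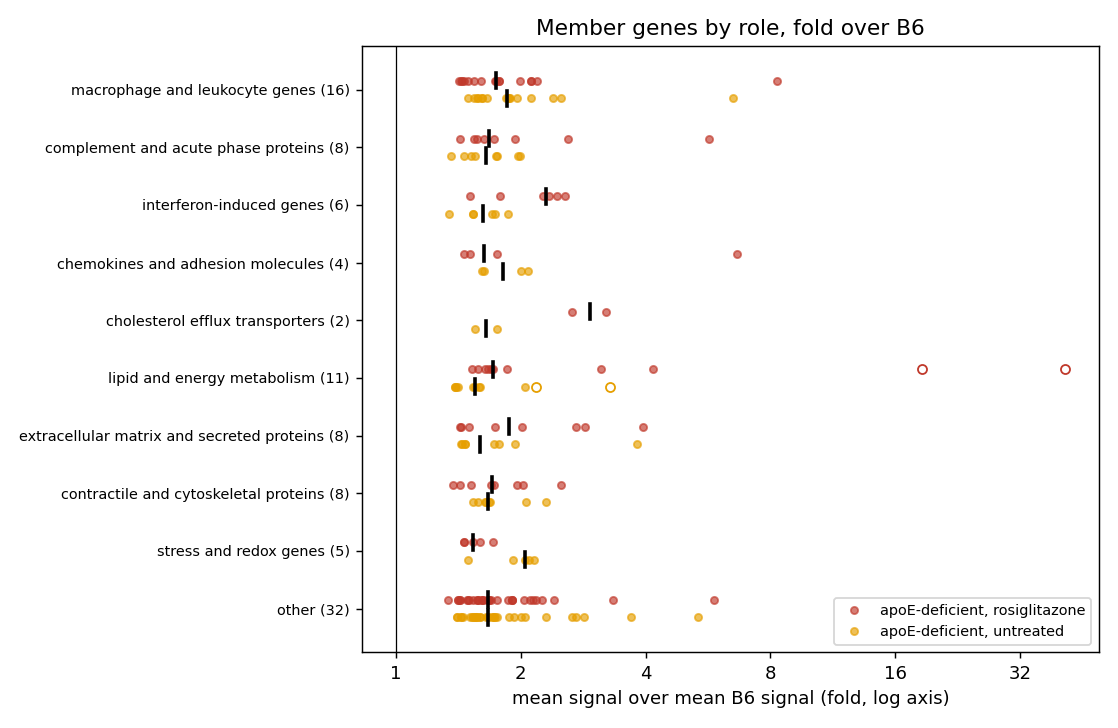
Fold of the group mean over the B6 mean (log axis) for each member gene, by role group, with rosiglitazone hearts and untreated apoE-deficient hearts in separate colours and each gene shown by its brightest member probe set. Open points are Slc27a2 and Elovl3, whose B6 signals include an array under 20, so that their folds are not exact values. Rosiglitazone points lie above the untreated points for the 4 interferon-induced genes that passed the test and for both efflux transporters, and lie below them in stress and redox genes.

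By role, the median fold over B6 was 2.30 in rosiglitazone and 1.62 in untreated apoE-deficient hearts for the interferon-induced genes, 2.93 and 1.65 for the efflux transporters and 1.72 and 1.55 for lipid and energy metabolism. It was 1.68 and 1.65 for complement and acute phase proteins, 1.87 and 1.60 for matrix and secreted proteins and 1.71 and 1.66 for contractile proteins. The order was the reverse in 3 groups, with 1.53 in rosiglitazone and 2.05 in untreated apoE-deficient hearts for the stress and redox genes, 1.63 and 1.82 for chemokines and adhesion molecules and 1.74 and 1.85 for macrophage and leukocyte genes. For the other genes both medians were 1.67. These medians are descriptions with no test.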

How the data were processed

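Heart RNA of 3 groups was measured on 2 arrays each. The authors deposited 1 linear intensity per probe set and array; per the submitters' processing notes GCOS produced it; the version, the background correction and any scaling are not named in the labels or file header. The deposited intensities were quantile-normalized over 45037 non-control probe sets, since brightness differed with group, and tested as log2 of the value plus a pseudocount of 11.1 (their 25th percentile), which understates the change of dim genes. Array number limits the precision.

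Of these, the 27022 probe sets whose mean log2 value exceeded the 40th percentile entered 1 limma fit of the 3 groups (limma 3.58.1, R 4.3.3; lmFit, then eBayes with trend). Benjamini-Hochberg adjustment ran over all of them, with calls at an adjusted p under 0.05. The test was checked on simulated data. Contrasts with B6 chose the members and were not tested, and neither was the difference between the apoE-deficient groups for 13 members whose mean signal falls under 100 without 1 of these groups, a restriction added after the data were seen.

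Gene symbols come from the array's annotation, updated through gene numbers with RefSeq's gene table of GRCm38.p6 for 34741 of 34945 probe sets; 932 probe sets with several symbols and 9160 with none were left out. Genes are shown by their brightest member probe set. Promoters are RefSeq's, and 73 of 100 member genes are in that table. A further search, for the PU.1 element GAGGAAGT, matched 2.44% of promoters. It matched 2 of the 16 macrophage, leukocyte and C1q genes in the table (Slamf9 and C1qc).

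Named genes were the 20 with the largest ratio to B6, up to 10 with the highest and up to 10 with the lowest called difference between the apoE-deficient groups without overlap, the 10 brightest, members of the lists, genes with 2 member probe sets, the 5 probe sets either side of the threshold, and Apoe with its neighbours; others were named after their values were seen. The members, lists and this rule were chosen with earlier results of these data known. Alternatives were other scalings, pseudocounts, filters and thresholds, a fit without trend, a replicate block, the 4 apoE-deficient arrays alone and leaving out each array. Same-numbered arrays did not deviate together (r = -0.006, 0.033 and 0.020), so the numbers do not pair them.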

Additional observations from a re-analysis of the deposited data

How the results depend on the processing

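The number of probe sets that meet the rule, 109, became 57 on unscaled signals, 390 with hybridization control scaling, 247 and 38 with a ratio of 1.2 and 1.5, 171 and 69 with a mean signal of 50 and 200, and 136 to 309 when 1 array was left out. Trimmed-mean and median scaling gave 105 and 82. Between the apoE-deficient groups, the 25 member probe sets higher became 105 on unscaled signals and 12 without the intensity trend, and 20 to 25 with 1 array left out. The 7 lower became 0 on unscaled signals, where limma called 23 of all 27022 probe sets lower, 2 with hybridization control scaling, 4 without a filter, 1 without the trend and 1 to 6 with 1 array left out. Trimmed-mean scaling gave 9 lower, of which 3 are among the 7, and testing only probe sets with a mean signal of 100 or more gave 8 lower. Leaving out the 13 members that reach a mean signal of 100 only through 1 apoE-deficient group, a choice made after seeing the data, gave 21 higher, 4 lower and a median of 0.044. Of all calls 50.5% were higher, against 64.7% with medians, 79.6% with hybridization controls, 99.9% unscaled and 64.0% without the trend, and the member calls were 78.1% higher, against 85.7%, 94.9%, 100% and 92.3%. The members' median difference, 0.046, became 1.27 unscaled, 0.17 with medians, 0.27 with hybridization controls and 0.032 to 0.061 with 1 array left out, while the median of all tested probe sets, -0.016, moved to 1.13, 0.086 and 0.18 under those 3 scalings.

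The sign turned for Clu with trimmed-mean (-0.44), median (-0.37) and hybridization control scaling (-0.26), for Acta1 (-0.26, -0.19 and -0.085) and for Ugp2 with trimmed means (-0.059). On unscaled signals it turned for Lyz2 (0.96), Hsp90aa1 (0.90), Timp3 (1.06), C1qb (0.97), C1qc (1.01), Mt2 (0.74), Sae1 (1.09), Trappc6a (1.02), Lonrf1 (0.87), Wdr83 (1.22), Ly86 (0.96), Zfp30 (0.70), Ifit1 (1.24), Gclc (1.26), Ccl9 (1.103), Srxn1 (0.79), Klhdc4 (0.48), Gnb3 (0.54) and Prkcb (0.58), where the median of all probe sets moved as far. The cause of the other shifts was not tested. With the replicate block 25 member probe sets were higher and 5 lower, and C1qb (adjusted p = 0.0568) and Srxn1 (adjusted p = 0.0507) lost their calls. Both changes of the pseudocount left all calls of the 100 genes in place. Dim signals limit Slc27a2, Elovl3, Klhdc4, Gnb3 and Prkcb, whose differences have no test.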
